A study of Rattus norvegicus with 2 samples.

Results

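Hox cluster genes encode homeodomain transcription factors, and here they are the genes whose symbol names a Hox cluster, A to D, and a paralogue number. Of 39 such genes in the RefSeq table of the rat assembly GRCr8, 31 were named by exactly 1 feature on the array, out of 18166 genes measured in all. The expression data come from 2 single colonies of C6, a chemically induced rat glioma cell line: colony No.8 and colony No.4, each on 1 whole-transcript array of total RNA. Both colonies were labelled undifferentiated, and the growth medium held 10% fetal bovine serum. A treatment of 35 days with CHIR99021 (an inhibitor of the kinase GSK3) at 20 µM and forskolin (which raises cyclic AMP) at 100 µM is written into the labels of both arrays, and the labels do not say whether the RNA was taken before or after it. A colony grown from C6 is 1 clone of a cell line, and each colony is represented by a lone array, so every value below is a single measurement and no test, standard error or p-value was computed.

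Hox genes lie side by side in clusters on separate chromosomes, and genes with the same paralogue number in different clusters descend from a common ancestral gene. In the embryo they are switched on in the order in which they lie, low paralogue numbers first and towards the head, high numbers later and towards the tail, and their combination marks position along the body, in the hindbrain and spinal cord included. Forebrain and midbrain normally develop without Hox expression, while genes of the HOXA cluster are known to be expressed in many human glioblastomas. Hox proteins bind DNA together with the TALE homeodomain proteins of the PBX and MEIS families, Polycomb complexes keep Hox clusters silent, and Trithorax complexes and retinoic acid act to keep or turn them on.

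Most Hox genes gave low readings in both colonies. As with genes in general, most differed little between the colonies: 80.6% by under 0.5 log2 units, against 83.4% of all genes measured. Hoxa7 was the 1 member at least 2-fold apart, where 5.47% of all genes past the floor defined next were. Levels are log2 values as deposited. A gene was counted as past the floor where either colony reached 4.33, which is the table's median value. Of the 31 Hox genes, 17 were past the floor, 54.8%, against 60.9% of all genes measured, and 14 were past it in both colonies, where 56.3% of all genes were. A stricter limit of 5.67, the 99th percentile of 1184 olfactory receptor genes, a family whose expression is largely restricted to the nose, was reached by 6 Hox genes, 19.4%, against 44.9% of all genes. These were Hoxa2, Hoxa6, Hoxa7, Hoxb3, Hoxb6 and Hoxd3, and only Hoxa6 and Hoxa7 reached it in both colonies. No detection call was used here, probes differ in how strongly they respond, and close copies share sequence, so a level says more about the same feature on the other array than about a different gene.

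Differences are given as colony No.8 minus colony No.4. Over the 31 Hox genes the median difference was 0.11, with the middle 50% between -0.01 and 0.36, beside a median of 0.03 and a middle 50% between -0.18 and 0.25 over all genes. Of the members, 21 were higher in No.8, 9 were lower and 1, Hoxd10, had the same deposited value in both, while 52.2% of all genes were higher in No.8. The difference was under 0.5 in size for 25 of the 31, 80.6%, against 83.4% of all genes measured. Of the 17 members past the floor, 1 differed by 2-fold or more. That 1 member was higher in No.8, as 2.91% of all genes past the floor were by this size, and 0 were lower, as 2.57% were. At 1.5-fold, 1 member was higher, against 9.87% of all genes past the floor, and 3 were lower, against 7.93%. Those 3 were Hoxb3, Hoxb6 and Hoxa13.

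**Figure D1:**
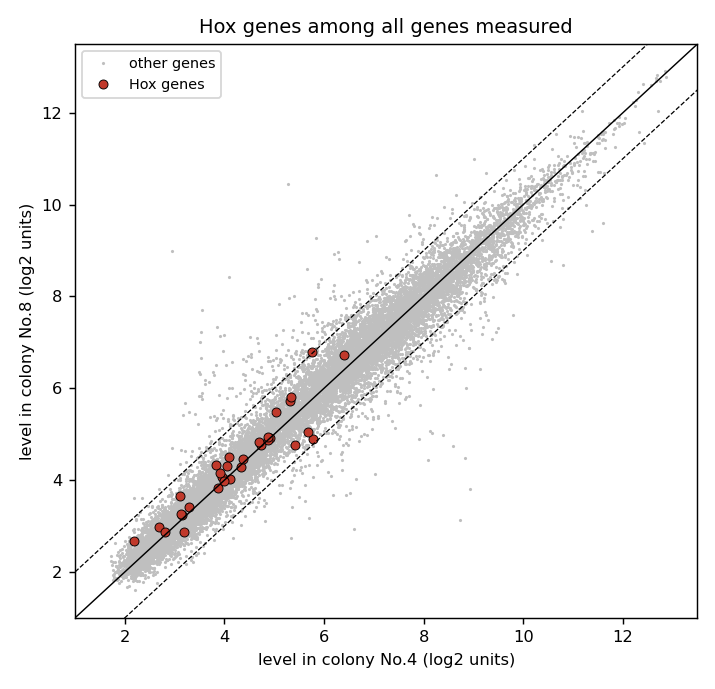
Level in colony No.8 (vertical axis) against colony No.4 (horizontal axis), both in log2 units, with a red point for each of the 31 Hox genes and a grey point for every other gene measured. The solid line marks equal levels and the dashed lines a 2-fold difference, and Hoxa7, at 6.79 in No.8 and 5.76 in No.4, is the 1 Hox gene past a dashed line.

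The HoxA cluster, on chromosome 4, was read in 8 of its 11 genes. Every one of the 8 was past the floor in at least 1 colony, against 60.9% of all genes measured. In the HoxB cluster, on chromosome 10, 6 of 10 were, in HoxC, on chromosome 7, 2 of 7, and in HoxD, on chromosome 3, 1 of 6. Those 3 genes outside HoxA and HoxB were Hoxc4, Hoxc9 and Hoxd3. Grouped by paralogue number instead, 5 of 6 anterior members (1 to 3), 8 of 13 central members (4 to 8) and 4 of 12 posterior members (9 to 13) were past the floor. HoxB, at 60%, and the central members, at 61.5%, were near the 60.9% of all genes. The limit of 5.67, reached by 44.9% of all genes, was reached by 3 of the 8 HoxA genes. None of the 12 posterior members reached it in either colony.

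**Figure D2:**
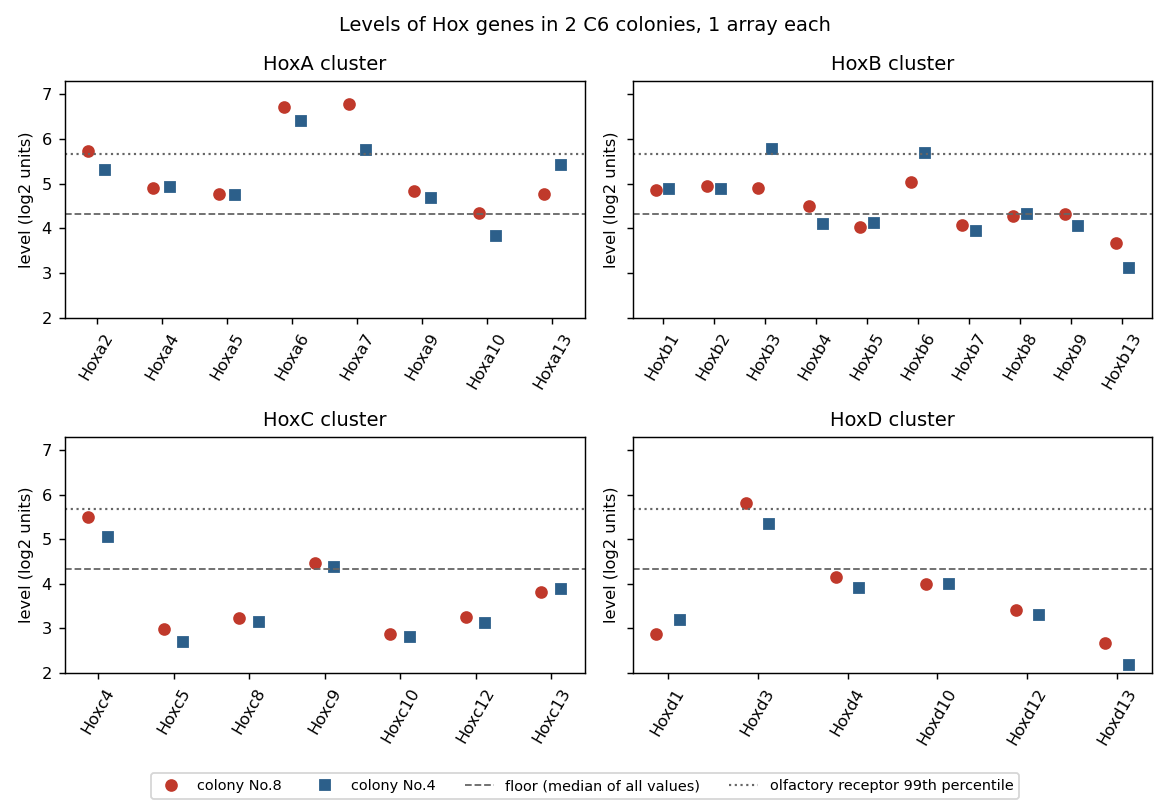
Level in log2 units of each measured Hox gene in colony No.8 (red circles) and colony No.4 (blue squares), in 1 panel per cluster with paralogue numbers increasing to the right. The dashed line is the floor of 4.33 and the dotted line the olfactory receptor 99th percentile of 5.67, and only Hoxa6 and Hoxa7 lie above the dotted line in both colonies.

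Hoxa7, whose human counterpart is active together with HOXA9 and MEIS1 in acute leukaemias, was at 6.79 in colony No.8, against 5.76 in colony No.4. This is a difference of 1.03, or 2.04-fold higher in No.8, with both levels past 5.67. Among all genes whose higher level lay between 6 and 7, 6.59% were at least 2-fold apart. The difference sat at the threshold: it was 1.999-fold after centring on the median difference of all genes and 1.98-fold after a loess on the mean level, both just under 2-fold. Hoxa6, the neighbour of Hoxa7 on the chromosome, was at 6.73 in No.8, against 6.41 in No.4, a difference of 0.32 in the same direction. The promoters of both are shown because these are the adjacent members past 5.67 in both colonies. Each runs from 250 bases before to 50 bases after the gene's start and is read 5′ to 3′ on the minus strand, from RefSeq on GRCr8, at chr4:82648192-82648491 for Hoxa7 and chr4:82639414-82639713 for Hoxa6, with CpG dinucleotides in capitals.
Hoxa7: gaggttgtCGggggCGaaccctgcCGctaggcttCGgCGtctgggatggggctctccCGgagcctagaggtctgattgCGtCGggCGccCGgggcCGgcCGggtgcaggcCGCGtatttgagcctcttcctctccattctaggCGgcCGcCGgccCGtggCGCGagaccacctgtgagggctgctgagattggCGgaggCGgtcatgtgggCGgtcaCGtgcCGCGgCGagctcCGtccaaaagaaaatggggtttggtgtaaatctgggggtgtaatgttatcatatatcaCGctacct
Hoxa6: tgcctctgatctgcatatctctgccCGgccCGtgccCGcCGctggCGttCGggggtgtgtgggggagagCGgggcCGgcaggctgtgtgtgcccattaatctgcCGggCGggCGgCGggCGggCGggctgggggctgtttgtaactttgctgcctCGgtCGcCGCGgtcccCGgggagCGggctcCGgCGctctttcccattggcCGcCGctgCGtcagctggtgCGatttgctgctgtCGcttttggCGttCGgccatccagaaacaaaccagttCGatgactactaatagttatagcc

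Both windows were rich in CpG, the dinucleotide at which vertebrate DNA is methylated, with 29 in Hoxa7 and 30 in Hoxa6. RefSeq promoter windows were matched for 15 of the 31 Hox genes, in 16 windows. All but those of Hoxb1 and Hoxc4 were from HoxA and HoxD, so the medians mostly describe these clusters. Their median was 21.5 CpG dinucleotides per 300 bases, against 7 over all 33469 RefSeq windows, of 27457 genes, whether measured on the array or not. The median ratio of observed to expected CpG was 0.81 over the Hox windows and 0.39 over all windows, and their G and C content 59.8% and 51.7%. Not every Hox window was CpG-rich: the ratio was 0.23 at Hoxc4 and 0.38 at Hoxb1, the only windows from HoxC and HoxB. The letters TGATNNAT, a sequence bound by HOX and PBX proteins together, were searched on both strands (ATNNATCA on the other) and found in 3 of the 16 windows, those of Hoxa2, Hoxa7 and Hoxb1, against 9.10% of all windows. A match is a run of letters and not a measured site.

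The other HoxA genes differed in both directions. Hoxa2, which patterns the second branchial arch and hindbrain in the mouse, was at 5.73 in colony No.8, against 5.31 in colony No.4, a difference of 0.42. Hoxa4, at 4.91 in No.8 and 4.92 in No.4, and Hoxa5, a gene needed for lung development in the mouse, at 4.77 in No.8 and 4.74 in No.4, differed by under 0.05. Both lay between the floor and 5.67, where a level may be near background. Hoxa9, a leukaemia gene in human and mouse, was at 4.83 in No.8, against 4.69 in No.4. Hoxa10, which is needed in the uterus in the mouse, was at 4.33 in No.8, just at the floor, and at 3.83 in No.4, below it. Hoxa13, the most posterior gene of the cluster, which shapes the distal limb and genital tract in human and mouse, ran the other way, at 4.76 in No.8 and 5.41 in No.4, a difference of -0.65. Both Hoxa13 levels lie under 5.67, so counted from there no difference is left, and for Hoxa2 it shrinks to 1.04-fold. The HoxA median was 0.23, with 6 members higher and 2 lower in No.8.

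HoxB held the gene with the largest difference in the other direction. Hoxb3, which acts in the hindbrain and neck region of the mouse embryo, was at 4.89 in colony No.8, against 5.78 in colony No.4, a difference of -0.89, or 1.85-fold lower in No.8. Hoxb6 was at 5.04 in No.8, against 5.68 in No.4, a difference of -0.64. In both genes No.4 was past 5.67 and No.8 was not, and counted from 5.67 at the least the differences shrink to 1.08-fold for Hoxb3 and 1.01-fold for Hoxb6. Between them in paralogue number, Hoxb4, known for expanding mouse blood stem cells when overexpressed, was at 4.50 in No.8, against 4.10 in No.4, and Hoxb5 was at 4.02 in No.8, against 4.12 in No.4. Hoxb4 was therefore past the floor in No.8 only, and Hoxb5 in neither colony. The genes on either side of Hoxb3 did not share its direction, with differences of 0.06 for Hoxb2 and 0.40 for Hoxb4.

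The other HoxB genes were close between the colonies or below the floor. Hoxb1, which specifies a segment of the hindbrain in the mouse, was at 4.87 in both, and Hoxb2 at 4.94 in No.8 and 4.88 in No.4. Hoxb7, at 4.07 in No.8 and 3.95 in No.4, was below the floor in both. Hoxb8 was at 4.28 in No.8, against 4.33 in No.4, a difference of -0.05 that straddles the floor. Hoxb9 was at 4.31 in No.8, against 4.06 in No.4, just under it. Hoxb13, a regulator of prostate development in the mouse, was at 3.66 in No.8, against 3.11 in No.4, and its difference of 0.55 lies wholly below the floor, so it may be background. Over the 10 HoxB genes the median was 0.02, with 5 higher and 5 lower in No.8.

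In HoxC, 2 members were past the floor. Hoxc4 was at 5.49 in colony No.8, against 5.04 in colony No.4, a difference of 0.44. Hoxc9 was at 4.47 in No.8, against 4.38 in No.4, just past the floor in both. The remaining 5 genes were below the floor in both colonies. Hoxc13, a gene of hair and nail formation in human and mouse, was at 3.82 in No.8 and 3.88 in No.4, and Hoxc8 at 3.24 in No.8 and 3.14 in No.4. Hoxc12 was at 3.26 in No.8 and 3.12 in No.4, Hoxc5 at 2.98 in No.8 and 2.69 in No.4, and Hoxc10 at 2.87 in No.8 and 2.80 in No.4. No HoxC difference exceeded 0.44 in size, and 6 of 7 were higher in No.8, with a median of 0.10.

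In HoxD, Hoxd3 alone was past the floor, at 5.80 in colony No.8, against 5.34 in colony No.4, a difference of 0.47, or 1.10-fold counted from 5.67. The other 5 were below it in both colonies. Hoxd4 was at 4.15 in No.8, against 3.91 in No.4, and Hoxd10 at 3.99 in both. Hoxd12 was at 3.41 in No.8, against 3.30 in No.4, and Hoxd1 at 2.87 in No.8 and 3.19 in No.4. Hoxd13, which is mutated in human synpolydactyly and shapes the digits, was at 2.66 in No.8, against 2.18 in No.4, far below the floor in both. The HoxD median was 0.18, over levels that were mostly below the floor and may be background.

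**Figure D3:**
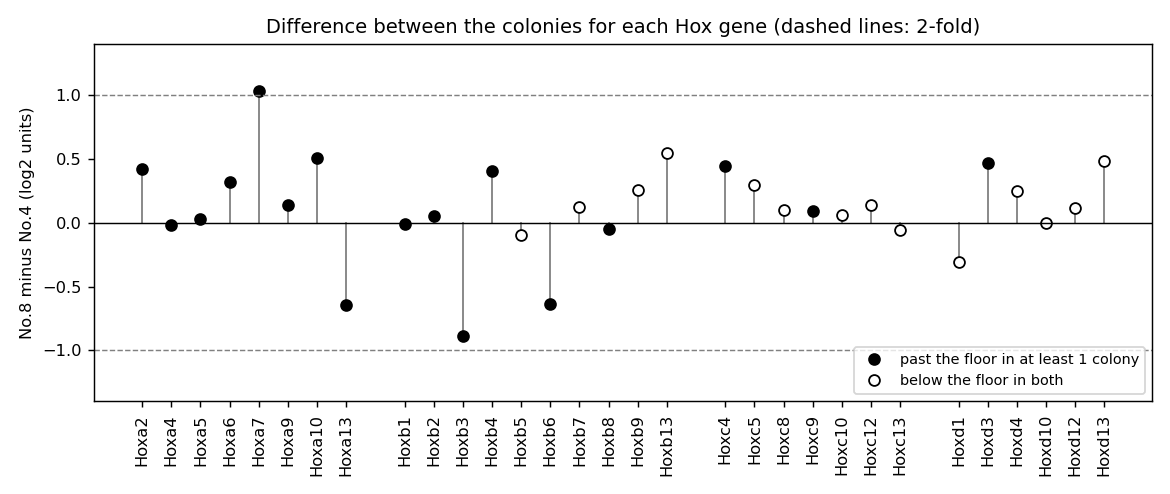
Level in colony No.8 minus level in colony No.4, in log2 units, for each Hox gene, ordered by cluster and paralogue number. Filled points were past the floor of 4.33 in at least 1 colony, open points were below it in both, and only Hoxa7, at 1.03, passes a dashed 2-fold line.

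Differences of both signs occurred in each of the 4 clusters. The only lower members of HoxC and HoxD, Hoxc13 and Hoxd1, were below the floor in both colonies. Along the clusters, 12 of 27 pairs of successive measured members had differences of opposite sign. That count takes signs of any size, such as -0.02 for Hoxa4, and the share over all genes was not computed. Of the 12 paralogue groups with at least 2 measured members, 7 held differences of mixed sign or a 0. Groups 2, 7, 9 and 12 were higher in No.8 in every measured member, and group 1 was lower in both. Some of these signs rest on low levels or very small differences. Hoxb7, Hoxb9, Hoxc12, Hoxd12 and Hoxd1 were below the floor in both colonies. Hoxb1 differed by -0.0074 in deposited values and by 0.03 after quantile normalization. Group 3 was the most divided, with Hoxd3 at 0.47 and Hoxb3 at -0.89, and group 6 held Hoxa6 at 0.32 and Hoxb6 at -0.64. Group 13 ranged from -0.65 for Hoxa13 to 0.55 for Hoxb13.

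Non-coding RNAs of the clusters were read by single features too, which respond to the precursor and not to a mature miRNA. Mir196c, between Hoxb9 and Hoxb13, was at 5.46 in colony No.8, against 5.27 in colony No.4, both under 5.67. It was the 1 of 6 miRNA genes past the floor, against 60.9% of all genes measured. Its relatives Mir196a, in HoxC, at 3.44 in No.8 and 3.34 in No.4, and Mir196b, in HoxA, at 3.06 in No.8 and 3.30 in No.4, were below it in both. The miR-196 miRNAs are known to repress Hox messengers such as Hoxb8 in the mouse. They are shown because Mir196c was past the floor and all 3 mature 5p forms, from RefSeq, share the seed AGGUAGU (bases 2 to 8, in capitals).
rno-miR-196a-5p: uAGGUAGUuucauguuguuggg
rno-miR-196b-5p: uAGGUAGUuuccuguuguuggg
rno-miR-196c-5p: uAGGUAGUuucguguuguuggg

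Mir615, in HoxC, was at 3.64 in colony No.8, against 3.92 in colony No.4. Mir10a and Mir10b had the same deposited value in both colonies, 2.31 and 2.27 for the 2 genes. Hoxa11-as, the antisense RNA of Hoxa11, was at 4.04 in No.8, against 4.53 in No.4, past the floor in No.4 only. None of these non-coding genes differed by 2-fold, where 5.47% of all genes past the floor did. Only Mir196c and Hoxa11-as were past the floor, too few to read a result from that count.

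The genes just outside the clusters were mostly past the floor. Of the 24 measured protein-coding genes nearest to the clusters in GRCr8, 3 on each side of each, 22 were past the floor. Of all genes measured, 60.9% were. The exceptions among the 24 were Skap1, beside HoxB, and the homeobox gene Evx2, beside HoxD. The median difference over the 24 was -0.0033. Hibadh, a mitochondrial enzyme gene of valine breakdown that lies beyond Hoxa13 and Evx1, was at 8.05 in No.8, against 9.24 in No.4. It was 2.29-fold lower in No.8 and the 1 neighbour at 2-fold, where 5.47% of all genes past the floor were. On the other side of HoxA, Skap2 was at 7.18 in No.8, against 6.91 in No.4 and Snx10 at 8.68 in No.8 and 9.24 in No.4. The third gene on that side, Hnrnpa2b1, an RNA-binding protein gene, was at 10.36 in No.8, against 9.59 in No.4, 1.71-fold higher in No.8. Beyond Hibadh, Tax1bp1 was at 9.53 in No.8 and 9.54 in No.4. Beside HoxC, Cbx5, which encodes the heterochromatin protein HP1 alpha, was at 8.76 in No.8, against 7.97 in No.4, a difference of 0.79, and the RNA-binding protein gene Hnrnpa1 was at 9.23 in both. Beside HoxD, the ATP synthase subunit gene Atp5mc3 was at 8.48 in No.8, against 7.91 in No.4.

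The DNA-binding partners of Hox proteins were mostly past both limits, and 1 of them differed by 2-fold, where 5.47% of all genes past the floor did. Of 9 listed TALE cofactor genes 8 were measured, and 7 of these were past both limits. Of all genes measured, 60.9% were past the floor and 44.9% reached 5.67. The median difference over the TALE genes was 0.08. Pbx3 was at 8.41 in colony No.8, against 8.60 in colony No.4, Meis2 at 6.97 in No.8 and 6.88 in No.4, and Meis1 at 5.95 in No.8 and 6.07 in No.4, each with a difference under 0.2 in size. Pknox1, a further TALE gene, was at 6.79 in No.8 and 6.65 in No.4. Meis3 was at 5.84 in No.8, against 4.79 in No.4, 2.08-fold higher in No.8, but 1.12-fold counted from 5.67 at the least.

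Of 29 listed Polycomb genes, which silence Hox clusters, 25 were measured. All 25 were past the floor, against 60.9% of all genes measured. By 2-fold or more, 1 of these was higher in No.8, against 2.91% of all genes past the floor, and 0 were lower, against 2.57%. The median difference was -0.09. Bmi1, a subunit of Polycomb repressive complex 1 whose loss gives posterior shifts of the mouse skeleton, was at 6.78 in No.8, against 5.57 in No.4, 2.31-fold higher in No.8, or 2.15-fold counted from 5.67. Ezh2, the main methyltransferase of Polycomb complex 2, was at 9.31 in No.8, against 8.58 in No.4, a difference of 0.73. Its relative Ezh1 was at 7.16 in No.8, against 7.83 in No.4, a difference of -0.67, and Phc3, a subunit of complex 1, had a difference of -0.65. The 2 methyltransferase genes thus ran in opposite directions. Yaf2, a subunit of variant forms of complex 1, was at 8.82 in No.8 and 9.35 in No.4, and the histone-binding protein gene Rbbp7 was close between the colonies, at 9.73 in No.8 and 9.69 in No.4.

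Of 21 listed Trithorax group genes and related activators, 16 were measured. All 16 were past the floor, against 60.9% of all genes measured. By 2-fold 0 were apart in either direction, against 5.47% of all genes past the floor. The median difference was -0.04. Ash1l, a histone methyltransferase that opposes Polycomb, was at 8.28 in colony No.8, against 7.40 in colony No.4, a difference of 0.88. Dot1l, the methyltransferase on which HOXA expression in MLL-rearranged human leukaemia depends, was at 6.64 in No.8, against 7.51 in No.4, a difference of -0.87. The H3K27 demethylase gene Kdm6b was at 7.33 in No.8 and 7.82 in No.4, and the insulator gene Ctcf at 8.91 in No.8 and 8.45 in No.4. Mllt1, which encodes the elongation factor ENL, was at 7.20 in No.8 and 6.57 in No.4, a difference of 0.63, and Aff4, of the same elongation complex, was at 8.46 in No.8 and 8.10 in No.4. Kmt2a and its relatives of the same family are not analysed here.

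Among retinoic acid genes 11 of 17 measured, 64.7%, were past the floor, near the 60.9% of all genes, with a median difference of -0.06. By 2-fold or more 0 were higher in No.8, against 2.91% of all genes past the floor, and 1 was lower, against 2.57%. The exception, Dhrs3, which turns retinaldehyde back to retinol and is itself induced by retinoic acid, was at 6.90 in No.8, against 7.93 in No.4, 2.06-fold lower in No.8. The receptor genes differed in direction: Rara was at 7.97 in No.8, against 7.33 in No.4 and Rarb at 7.48 in No.8 and 6.87 in No.4, while Rarg was at 7.06 in No.8 and 7.74 in No.4. These 3 were each past 1.5-fold. Aldh1a3, which makes retinoic acid, was at 7.53 in No.8 and 7.82 in No.4.

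**Figure D4:**
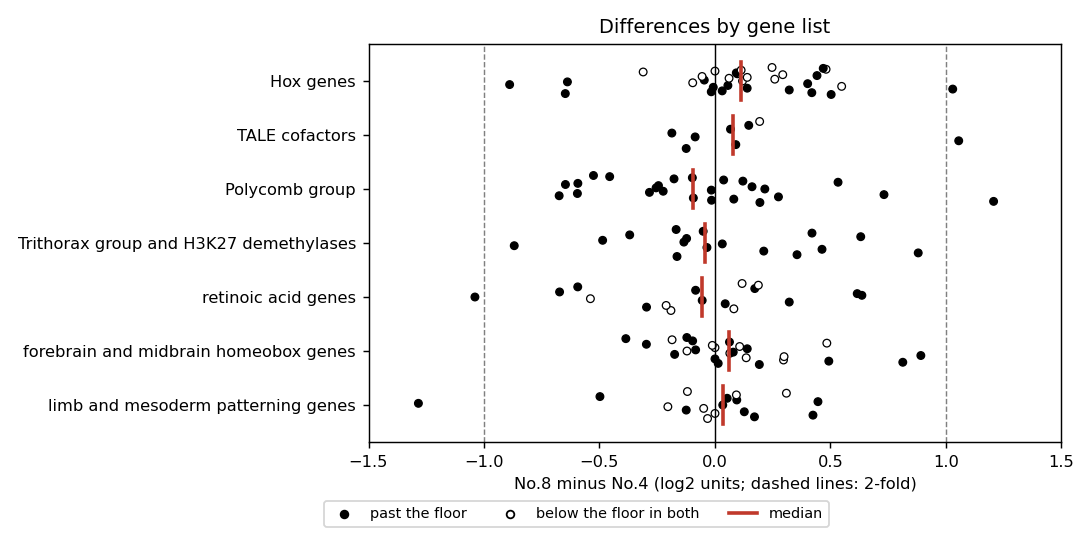
Level in colony No.8 minus level in colony No.4, in log2 units, with 1 point per gene, a red bar at each list's median, and dashed lines at 2-fold. Filled points were past the floor of 4.33, and the medians of these 7 lists lie between -0.09 for Polycomb genes and 0.11 for Hox genes, with 1 Hox gene, Hoxa7, past 2-fold.

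Genes that pattern other regions passed these limits in shares near those of Hox genes, except for ParaHox genes, of which 0 reached 5.67. Past the floor were 15 of 25 forebrain and midbrain homeobox genes, 13 of 20 hindbrain and spinal cord genes, 10 of 17 limb and mesoderm genes (a list that also holds Hand2, which has no homeodomain) and 1 of 5 ParaHox genes, Cdx2. Over the forebrain and midbrain, limb and mesoderm and ParaHox lists together, 26 of 47 genes were past the floor, 55.3%, beside 54.8% of Hox genes, and 17.0% reached 5.67, beside 19.4% of Hox genes. Their median size of difference was 0.13, against 0.25 for Hox genes and 0.21 for all genes. The forebrain genes Lhx2, at 7.62 in No.8 and 7.70 in No.4, and Otx1, at 6.62 in No.8 and 6.92 in No.4, were past 5.67 in both colonies, as Hoxa6 and Hoxa7 were.

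Single genes of these lists differed. Msx2, a limb and craniofacial gene, was at 4.74 in colony No.8, against 6.03 in colony No.4, 2.44-fold lower in No.8, or 1.28-fold counted from 5.67. Emx2, a cortical patterning gene, was at 5.43 in No.8, against 4.54 in No.4, both under 5.67. Dlx1, of forebrain interneurons, was at 6.43 in No.8 and 5.61 in No.4. Pax3, of the dorsal spinal cord and neural crest, was at 5.60 in No.8, against 6.38 in No.4. Egr2, of hindbrain segments and also an immediate early gene, was at 8.69 in No.8 and 9.21 in No.4, a difference of -0.53. Msx2 was the 1 gene of the 4 lists at 2-fold in deposited values, where 5.47% of all genes past the floor were. Prrx1, a mesenchymal homeobox gene, was bright in both, at 9.17 in No.8 and 9.08 in No.4, and Hand2 was at 5.93 in No.8 and 5.80 in No.4. The eye and forebrain gene Six6 was at 5.59 in No.8 and 5.98 in No.4. Another 6 of these genes were below 5.67 in both colonies, where a level may be near background. Higher in No.8 among them were Dlx2, at 5.42 in No.8 and 4.92 in No.4, Barx1, at 5.44 in No.8 and 5.02 in No.4, Isl1, at 4.54 in No.8 and 4.04 in No.4, and Pitx1, at 4.41 in No.8 and 3.97 in No.4. Lower in No.8 were Irx1, at 4.63 in No.8 and 5.08 in No.4, and Shox2, at 4.42 in No.8 and 4.92 in No.4.

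**Figure D5:**
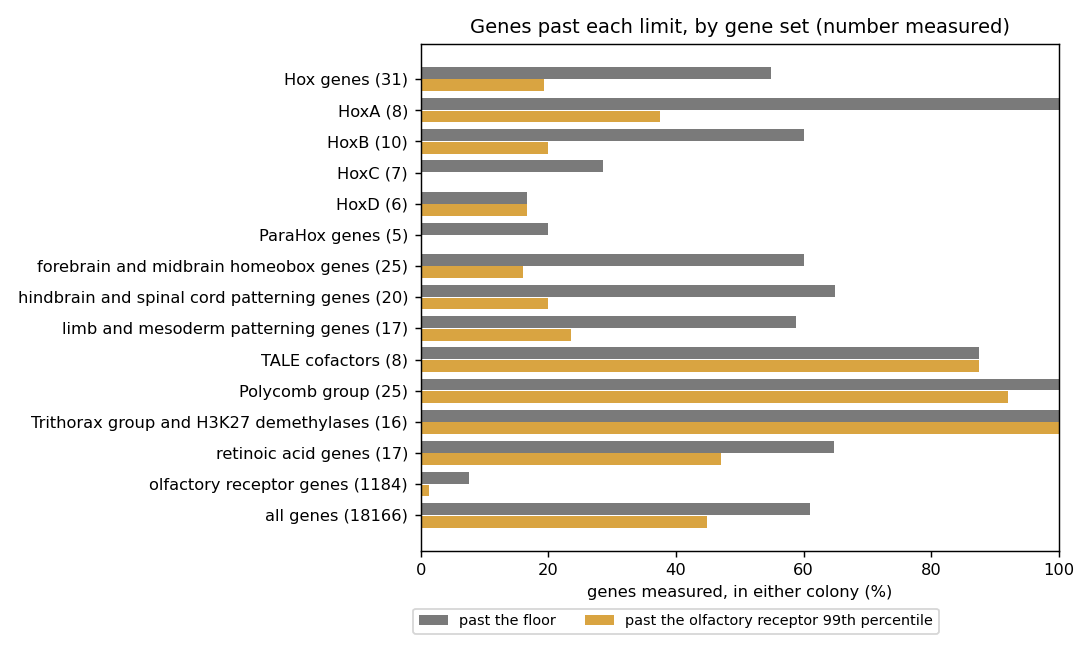
Percent of measured genes past the floor of 4.33 (grey bars) and past the olfactory receptor 99th percentile of 5.67 (yellow bars) in at least 1 colony, for each gene set, with the number measured in brackets. HoxA stands at 100% and HoxD at 16.7% past the floor, and Hox genes as a whole at 54.8% beside 60.9% of all genes.

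Of 13 measured genes reported as Hox targets in mouse or human cells, 6 were past the floor, 46.2%, against 60.9% of all genes. By 2-fold or more 0 were higher in No.8, against 2.91% of all genes past the floor, and 1 was lower, against 2.57%. Robo2, an axon guidance receptor, was at 4.81 in colony No.8, against 6.44 in colony No.4, 3.09-fold lower in No.8, or 1.71-fold counted from 5.67. The adhesion gene Ncam1 was at 10.99 in No.8, against 10.21 in No.4, the ephrin receptor gene Ephb2 at 6.79 in No.8 and 6.16 in No.4, and Bmp7 at 9.09 in No.8 and 9.75 in No.4. Whether these differences have any relation to Hox levels was not tested.

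The labelled cell type was checked against its markers. Vim, the intermediate filament gene vimentin, was at 12.60 in colony No.8, against 12.57 in colony No.4, Nes at 9.94 in No.8 and 9.54 in No.4, S100b at 8.46 in No.8 and 8.24 in No.4 and Sox2 at 8.44 in No.8 and 9.08 in No.4, while the astrocyte genes Aqp4 and Slc1a3 were below the floor in both. Gfap, the astrocyte intermediate filament gene, was at 5.17 in No.8 and 4.11 in No.4, both under 5.67, and Cspg4, of oligodendrocyte precursors, was at 4.62 in No.8 and 6.37 in No.4, so these differed by over 2-fold in opposite directions. Of the other cell types, 1 of 5 microglia and macrophage markers, 0 of 2 endothelial markers, 2 of 4 fibroblast markers and 1 of 4 neuronal markers measured were past the floor. Of all genes measured, 60.9% were past the floor. The macrophage marker past it was Cd68, at 4.07 in No.8 and 4.62 in No.4, and the neuronal one Rbfox3, at 4.76 in No.8 and 4.68 in No.4. Below it in both colonies were Ptprc, Itgam, Cx3cr1 and Aif1 of microglia and macrophages, Cdh5 and Vwf of endothelium, Dcn and Lum of fibroblasts, and Tubb3, Snap25 and Syt1 of neurons. The fibroblast markers past it were Pdgfra, at 9.53 in No.8 and 10.24 in No.4, which oligodendrocyte precursors also express, and Col3a1, at 5.08 in No.8 and 4.61 in No.4. Olig2, of the oligodendrocyte lineage, was also over 2-fold lower, at 4.22 in No.8, against 6.36 in No.4. The part of these markers in the Hox differences was not tested.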

How the data were processed

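Total RNA of 2 C6 colonies was measured on 1 whole-transcript array each. The log2 values were used as deposited by the authors. How they were made is not stated in any label or header used here, and base 2 was inferred from their range, which reaches 13.3. The quartiles of the 2 arrays were nearly equal (6.37 at the upper quartile in both), so no further scaling was done. Of 36685 features, 18511 had exactly 1 symbol in the platform annotation. The feature with the highest mean level stood for each of 18166 symbols, and each Hox gene had 1 feature. Hox symbols were matched to RefSeq (GRCr8) by gene ID for 28 genes and by symbol alone for 3, Hoxa2, Hoxa4 and Hoxa10. No source used here names the array's genome build, so that table served for names and gene order.

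The members, lists, floor and 5.67 limit were chosen with earlier results of these data known. Lists were described by counts and medians beside all genes. Named were every measured Hox gene, each list's 4 largest differences and 2 highest levels past the floor, and markers. Genes flanking the clusters were taken by position, and the non-coding genes of the clusters by name. Alternatives covered scaling, floor, offset, choice of feature and fold size. Counting steps were tested on simulated data. Python 3.11.15, pandas 2.3.3 and statsmodels 0.14.6 were used.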

Additional observations from a re-analysis of the deposited data

How the results depend on the processing

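The count of 1 Hox gene 2-fold higher in colony No.8 rests on Hoxa7, which sits at the threshold. Centring on the median difference of all genes gave 0 (Hoxa7 at 1.999-fold), a loess on the mean level gave 0 (1.98-fold), an offset of 64 on the linear scale gave 0 (1.48-fold), and a 4-fold limit gave 0. Quantile normalization kept it at 2.07-fold. The count of genes 2-fold lower stayed at 0 in each alternative run, and a 1.5-fold limit gave 3. The number past the floor depends on where the floor is set: 8 genes with the floor at the 60th percentile (5.01) and 6 with it at 5.67, while the 40th percentile gave 23. The median difference over Hox genes stayed between 0.02 and 0.13 under the scaling, offset and feature alternatives, and was 0 with levels raised to 5.67 at the least, an alternative chosen after earlier results of these data were known, since most members then have no measured difference. Among the scalings, the loess shifted the median of all genes most, by -0.0346. No paired analysis was possible because each colony has 1 array and the labels give no replicate numbers. With 1 array per colony, no replicate could be left out, and the spread between cultures of a colony is unknown.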

Other observations

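Among Hox genes, cluster non-coding genes and flanking genes, Hoxd10, Mir10a, Mir10b and Skap1 had identical deposited values in both colonies, to every digit given. Some genes of the other lists and markers had identical values too. Over the whole table this held for 1320 of 36685 features, 3.60%, and for 635 of 18166 genes, of which 145 were past the floor.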
